A study of Mus musculus with 4 samples.

Results

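The 10 genes described here encode the core enzymes that remove superoxide and peroxide in mitochondria and cytosol, together with 1 mitochondrial carrier: Sod1, Sod2, Cat, Gpx1, Prdx3, Prdx5, Txn2, Txnrd2, Glrx2 and Ucp2. They were taken by their Ensembl identifiers from a table of 55421 gene identifiers, all 10 were found there, and all 10 passed the filter on low values that left 18547 genes for testing. The study measured RNA by bulk RNA-seq in YFP-positive cells sorted from the micro-dissected subventricular zone of adult mice, the neurogenic niche that lines the lateral ventricle. Of 4 libraries, 2 were Opa1 KO and 2 were WT. Opa1 KO mice carried Nestin-CreERT2, the Rosa26 YFP reporter and 2 floxed copies of Opa1, the gene of a dynamin-like GTPase that fuses inner mitochondrial membranes and holds cristae in shape. WT mice carried Nestin-CreERT2 and the YFP reporter without the floxed gene. Both groups received tamoxifen as young adults, with 1 copy of the Cre transgene, on a C57BL/6 background. The time of collection is not certain, since the study's methods place the sort about a month after the injections and its discussion names an earlier time for sorted subventricular cells. Males and females were used, and how many animals gave each library is not given in the sources used here. Since the Nestin promoter starts the reporter in stem cells and the label is inherited, the sorted population holds their progeny as well as any other cell that passed the YFP gate.

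Superoxide leaks from the respiratory chain on both sides of the inner mitochondrial membrane. Superoxide dismutases convert it to hydrogen peroxide, which catalase, glutathione peroxidases and peroxiredoxins reduce further, and the peroxiredoxins of the matrix are recharged by thioredoxin 2 and its reductase. Loss of OPA1 disturbs respiration. The RNA levels of these genes bear on whether the sorted cells carried more or less transcript for peroxide removal after Opa1 deletion.

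No member of the set passed the test in Opa1 KO cells, and none of the 10 differed between group means by more than 0.22 on the log2 scale in either direction. Opa1 KO means were higher for 4 members and lower for 6. Prdx3 had the largest difference, 1.17-fold higher in Opa1 KO cells, and Ucp2 had by far the largest spread between libraries of 1 genotype. The test was limma with a trended, robust variance on log2(value + 1), with p-values adjusted over all 18547 genes. The same fit called 0 of all genes (0%) at an adjusted p of 0.05 and 666 genes (3.59%) at an unadjusted p of 0.05, and the members' count was 0 by both rules. On whole reads recovered from the deposited values, DESeq2 called 64 genes (0.345%), 48 higher and 16 lower in Opa1 KO, and edgeR called 0 (0%, with 716 genes at an unadjusted p of 0.05). None of these calls was a member.

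Opa1 itself was counted at 837 and 739 normalised reads in Opa1 KO libraries, against 3039 and 2833 in WT libraries. The groups were far apart, with a log2 fold change of -1.90 ± 0.13 (SE), yet the adjusted p by limma was 0.998, and by DESeq2 it was 1.7e-25. An adjusted p above the threshold for any other gene is therefore read here beside its 95% confidence interval, since with 2 libraries a group the test does not show that levels are equal.

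Assigned reads were between 19985853 and 23237326 per library, and the members had between 384 and 3990 reads in each. Reads on mitochondrially encoded genes made up 0.459% and 0.506% in Opa1 KO libraries, against 0.812% and 0.823% in WT libraries. Of 8 neural stem cell and astrocyte markers, all were detected in every library, and Opa1 KO means were higher for 6 and lower for 2. Their summed level was 120780 and 125452 in Opa1 KO libraries, against 88918 and 87356 in WT libraries. Gfap was at 3673 and 5177 in Opa1 KO against 3836 and 2745 in WT. The 8 neuroblast markers were all lower in Opa1 KO, with sums of 99444 and 79640 against 131550 in WT replicate 1 and 109457 in WT replicate 2, and Dcx at 17098 and 14067 in Opa1 KO against 23028 and 20655 in WT. Markers of cells outside the lineage were also present. The 8 oligodendrocyte markers summed to 60080 and 58935 in Opa1 KO against 44705 and 23401 in WT (Mbp 6902 and 6056 against 4540 and 2621), and the 8 endothelial markers to 1755 and 4687 against 1401 and 2319 (Cldn5 235 and 597 against 232 and 330). The 4 haemoglobin genes summed to 753 and 963 in Opa1 KO against 1103 and 819 in WT (Hba-a1 276 and 313 against 418 and 292). In bulk RNA, fewer cells of a type and less RNA per cell cannot be told apart, and the part of this cell makeup in any difference given here was not tested.

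Per kilobase of annotated exon, Cat had the highest level of the members. It stood at 1346 ± 32.3 normalised reads per kilobase in Opa1 KO and 1445 ± 48.4 in WT (SD, n = 2 each). Gpx1 and Prdx3 followed, at 974 ± 68.2 and 1062 ± 62.3 per kilobase in Opa1 KO and at 1055 ± 62.2 and 910 ± 57.8 in WT, and their libraries overlapped. Txn2, Sod1 and Prdx5 formed the next level, with 565, 547 and 476 per kilobase in Opa1 KO and 607, 555 and 456 in WT, and each overlapped its neighbour in the order. Sod2 stood alone at 259 per kilobase in Opa1 KO and 260.3 in WT. The lowest levels belonged to Glrx2, Ucp2 and Txnrd2, with 191, 127 and 98.7 per kilobase in Opa1 KO and 205, 123 and 95.4 in WT. Within these last 3 genes, the libraries of Ucp2 covered a range from 53.2 to 193 per kilobase that overlapped both neighbours. Exon length is the union over all annotated transcripts. A gene with long alternative exons such as Sod2, with 10008 bases, is therefore given a lower level than its main transcript would have. Lengths of main transcripts were not used, and the order of the members could differ with them.

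**Figure D1:**
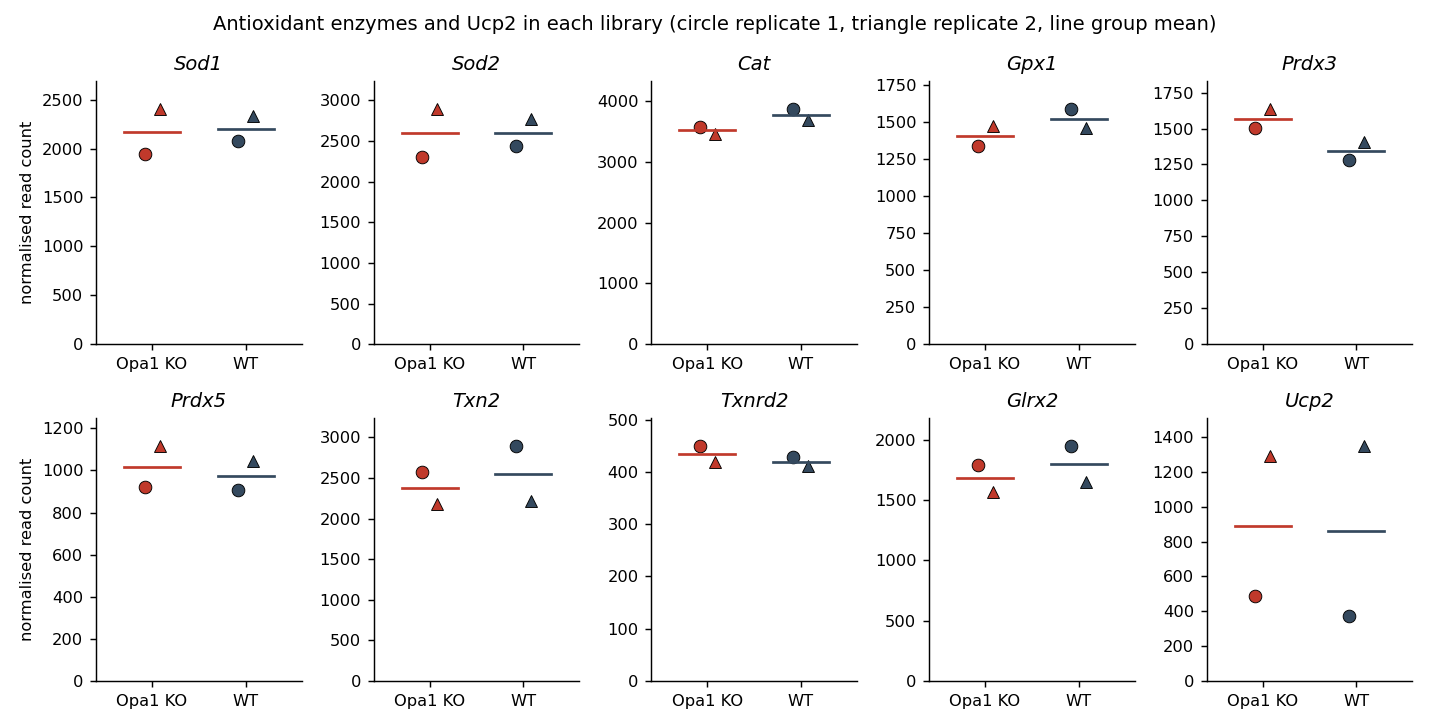
Normalised read count (y axis, from 0) of each of the 10 genes in the Opa1 KO libraries (red) and the WT libraries (dark), with circles for replicate 1, triangles for replicate 2 and a line at each group mean. The groups do not overlap for Cat, lower in Opa1 KO, and for Prdx3, higher in Opa1 KO, while Ucp2 is split between replicates in both groups.

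Many genes of thiol defence are switched on by NRF2, a factor that binds the antioxidant response element. Its core, written TGACNNNGC or on the other strand GCNNNGTCA, was searched in RefSeq promoter windows of GRCm38.p6, from 250 bases before to 50 bases after each gene's start. All 10 members had a window, 13 windows in all since Glrx2 has 4, and Sod1 and Ucp2 held 1 match each. That is 20% of the members, against 14.0% of 27025 genes and 12.4% of 32851 windows. Of the wider list, 21 genes had a window and 5 held the core (Msrb2, Prdx1, Slc25a14, Srxn1 and Txnrd1), with log2 fold changes from -0.37 to 0.16. A second motif, TGATGNAAN (NTTNCATCA on the other strand), the core bound by ATF4 with C/EBP partners, was in 3.95% of all windows and in 0 of 13 member windows. A match is a match of letters only. A stretch of 100 bases that ends a few bases upstream of the first annotated start is shown for both members with the core, in capitals, and for Prdx3, the member with the largest difference, which has none in its window. The Sod1 stretch is chr16:90220649-90220748 (plus strand), that of Ucp2 is chr7:100493232-100493331 (plus strand) and that of Prdx3 is chr19:60874562-60874661 (minus strand), and the Sod1 and Ucp2 cores end 47 and 57 bases before the RefSeq start, which lies downstream of the GENCODE start in both genes.
Sod1: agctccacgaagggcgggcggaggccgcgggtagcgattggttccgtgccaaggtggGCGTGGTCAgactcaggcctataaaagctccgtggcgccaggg
Ucp2: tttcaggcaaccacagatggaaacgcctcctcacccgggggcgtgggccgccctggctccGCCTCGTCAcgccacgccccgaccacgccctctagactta
Prdx3: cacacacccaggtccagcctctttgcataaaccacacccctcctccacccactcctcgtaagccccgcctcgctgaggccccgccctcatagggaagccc
The 2 members with the core gave log2 fold changes of -0.03 for Sod1 and 0.16 for Ucp2, neither beyond the spread between libraries, and Prdx3 without it gave 0.22.

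Sod1 and Sod2, the superoxide dismutases among the members, had group means close to each other, while Sod3, outside the set, is given below. Sod1 (chr16:90220754-90226329, plus strand, GRCm38, as are all positions here) encodes the copper-zinc enzyme of the cytosol and intermembrane space. Sod1 was 1 of the 2 members with a letter match to the NRF2 core. It had 1944 and 2402 normalised reads in Opa1 KO libraries, against 2075 and 2335 in WT libraries. The WT values lay inside the Opa1 KO range, and the log2 fold change was -0.03 (95% confidence interval -0.46 to 0.40; fold 0.729 to 1.32). Sod2 (chr17:13006846-13040063, plus strand) encodes the manganese enzyme of the matrix, and had 2301 and 2892 in Opa1 KO libraries, against 2442 and 2767 in WT libraries. Again WT lay inside the Opa1 KO range, with a log2 fold change of -0.01 (-0.46 to 0.44). Scaling by total reads only shifted the median of all genes by 0.053 on the log2 scale, and Sod1 and Sod2 moved by the same amount, to 0.03 and 0.04, so relative to all genes neither moved. Parts of the Sod2 exons are nearly identical to Rps6ka2 transcripts, over up to 3110 bases at 98.3% identity, and Sod1 has a processed pseudogene, Gm8566, at 97.8% identity over 465 bases, counted at a mean of 0.242 normalised reads. How reads were split between such copies is not given, and the Sod2 level is uncertain to that extent.

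Catalase was the most even member. Cat (chr2:103453849-103485160, minus strand) encodes the haem enzyme of peroxisomes that breaks down hydrogen peroxide without a reducing partner. Its RNA was at 3576 and 3457 normalised reads in Opa1 KO libraries, against 3864 and 3685 in WT libraries. Both Opa1 KO values were below both WT values, and the means were 3517 ± 84.3 and 3775 ± 127 (SD, n = 2 each). The log2 fold change was -0.10 ± 0.11 (SE; 95% confidence interval -0.41 to 0.20), with an adjusted p of 0.998 by limma. Cat was the 1 member of 10 whose groups did not overlap with Opa1 KO lower, in a table where 2913 of 18547 genes (15.7%) met that rule. Its spread within groups was 0.042 on the log2 scale, and 96.0% of tested genes had a larger one.

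Gpx1 (chr9:108338903-108340343, plus strand) encodes the selenium-dependent glutathione peroxidase of cytosol and mitochondria. Opa1 KO libraries had 1334 and 1473 normalised reads, against 1584 and 1458 in WT libraries, so that 1 Opa1 KO library stood above 1 WT library. The log2 fold change was -0.12 ± 0.13 (SE), with a 95% confidence interval from -0.46 to 0.23. This was the lowest fold change among the members, and 66.4% of all tested genes had a larger difference in either direction.

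The peroxiredoxins of mitochondria gave the 1 member with higher, non-overlapping values. Prdx3 (chr19:60864051-60874556, minus strand) encodes the peroxidase that handles most of the hydrogen peroxide of the matrix. It had 1504 and 1634 normalised reads in Opa1 KO libraries, against 1284 and 1405 in WT libraries. Both Opa1 KO values exceeded both WT values, by a gap smaller than the distance between the 2 libraries of either genotype. Means were 1569 ± 92.0 and 1345 ± 85.5 (SD, n = 2 each), a log2 fold change of 0.22 ± 0.13 (SE; -0.12 to 0.56), unadjusted p = 0.149 and adjusted p = 0.998 by limma. Over all genes, 2816 of 18547 (15.2%) had non-overlapping groups with Opa1 KO higher, and 1 of 10 members did. The Prdx3 difference kept its sign in each of 14 alternative fits, between 0.16 and 0.29, and passed the threshold in none of them. Since the groups do not overlap, leaving out 1 library could not turn the sign, so those fits do not test it.

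Prdx5 (chr19:6906697-6910106, minus strand) encodes an atypical peroxiredoxin found in mitochondria, peroxisomes and cytosol. Its values were 919.6 and 1116 in Opa1 KO libraries, against 908 and 1042 in WT libraries, which overlapped, with a log2 fold change of 0.06 (-0.38 to 0.50). The gene shares 409 exon bases with Trmt112 on the opposite strand, and since the strand setting of the counting is not given, reads there cannot be assigned to 1 of the 2 genes with certainty.

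The thiol chain that recharges Prdx3 was not called either. Txn2 (chr15:77915047-77929006, minus strand) encodes mitochondrial thioredoxin, and had 2575 and 2176 normalised reads in Opa1 KO libraries, against 2895 and 2211 in WT libraries. The groups overlapped, and the WT libraries were further apart than the group means (log2 fold change -0.10, 95% confidence interval -0.60 to 0.41). Txnrd2 (chr16:18426384-18479073, plus strand) encodes the selenoprotein that reduces thioredoxin 2. It was the lowest member per kilobase, with 449 and 419 in Opa1 KO libraries, against 428 and 411 in WT libraries. These values overlapped too, and the log2 fold change was 0.05 (-0.36 to 0.46). Glrx2 (chr1:143716338-143749676, plus strand) encodes a glutaredoxin that removes glutathione from protein thiols in mitochondria. It had 1788 and 1568 in Opa1 KO libraries, against 1948 and 1646 in WT libraries, with overlap and a log2 fold change of -0.10 (-0.50 to 0.31). Stretches of 106 to 348 bases of its annotated exons are at least 95% identical to transcripts of 65 other genes, so the Glrx2 level is uncertain in the same way as that of Sod2. Prdx3 at 0.22 and Txnrd2 at 0.05 had the same sign, and Txn2 at -0.10 had the opposite one. The sign turned in 2 of 14 alternative fits for Txn2 and in 1 for Txnrd2. No pair of these differences was tested against each other.

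**Figure D2:**
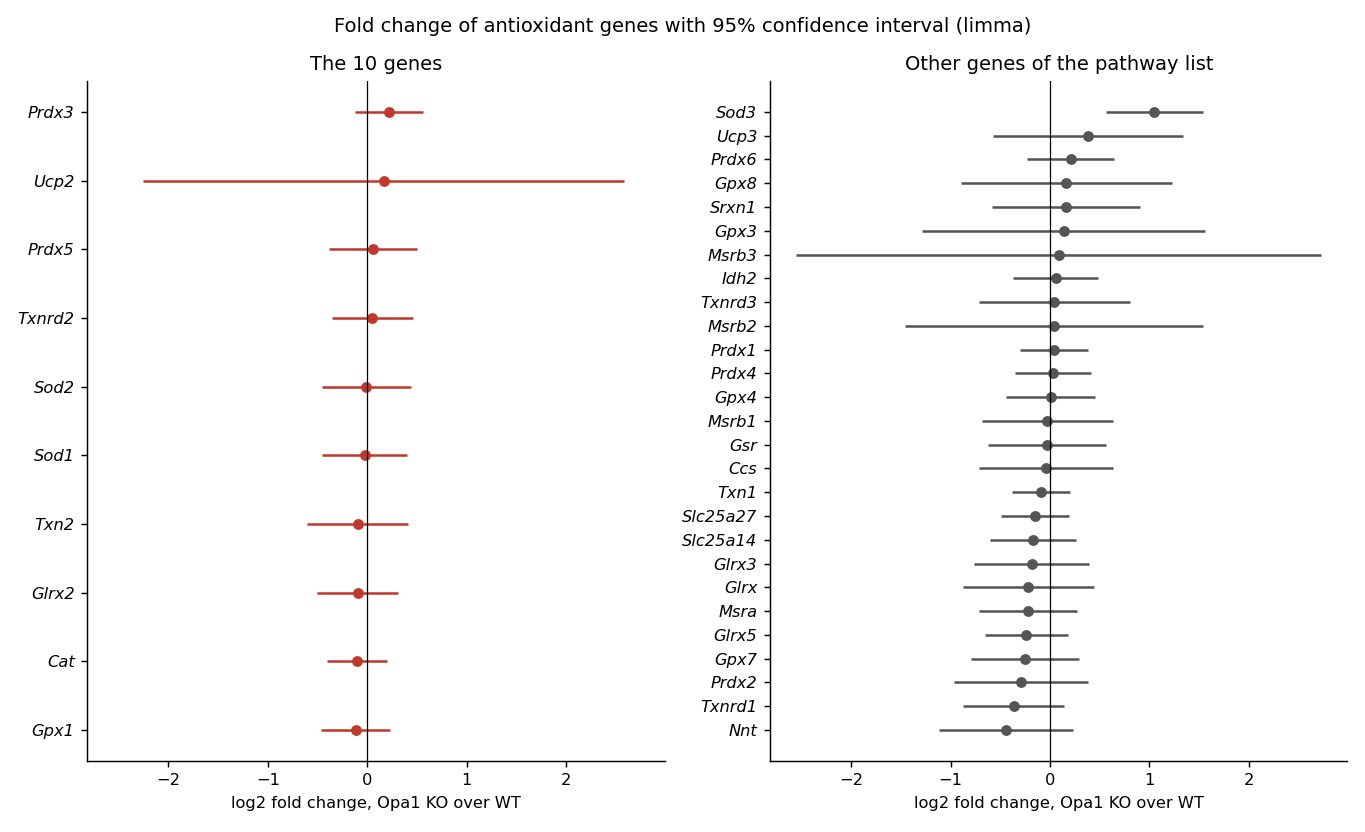
Log2 fold change (x axis, Opa1 KO over WT) of the 10 genes (left, red) and of the 27 tested genes of the wider pathway list (right, grey), as points with 95% confidence intervals from limma, ordered by size. All 10 intervals on the left span 0, and Sod3 on the right, at 1.05, is the one gene whose interval does not.

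Set against all genes, the members were close to the middle of the table. Their median log2 fold change was -0.02, against -0.01 over all tested genes and -0.03 over the wider pathway list. The median size of the difference regardless of sign was 0.10 for the members and 0.18 for all tested genes. For 7 of 10 members (70%) the difference between genotypes was smaller than the pooled SD within groups, as it was for 59.7% of all tested genes. The median within-group SD was 0.16 for the members and 0.22 for all tested genes. All tested genes include those that barely passed the filter on low values, and no background matched for read count was used. For the members other than Ucp2, the 95% confidence intervals lay between 0.659-fold, the lower bound of Txn2, and 1.48-fold, the upper bound of Prdx3. Single intervals were narrower, such as 0.755-fold to 1.15-fold for Cat and 0.726-fold to 1.17-fold for Gpx1.

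**Figure D3:**
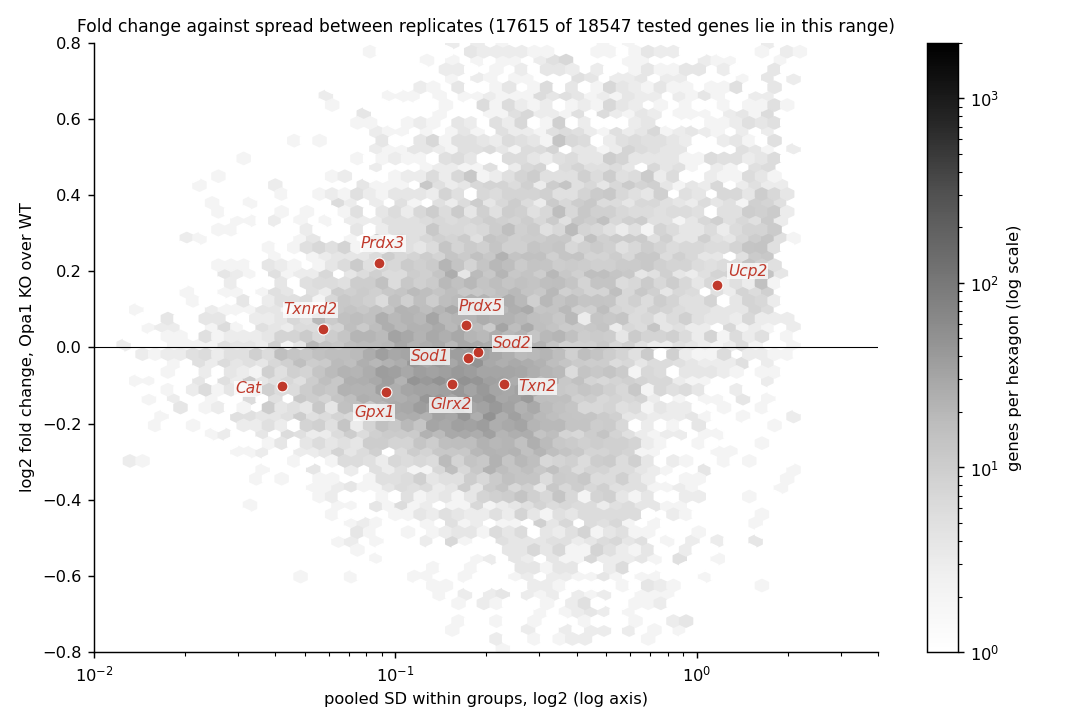
Log2 fold change (y axis, Opa1 KO over WT) against the pooled SD within groups (x axis, log2 units on a log axis) for 17615 of the 18547 tested genes, those inside the drawn range, as grey hexagons, with the 10 members in red. Cat lies at the left edge with an SD of 0.042, Prdx3 is the highest member at 0.22, and Ucp2 lies far to the right with an SD of 1.16.

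Ucp2 (chr7:100493337-100502020, plus strand) encodes a carrier of the inner mitochondrial membrane, described as a mild uncoupler and as an exporter of C4 metabolites. The other member with a letter match to the NRF2 core, it was split within each genotype. Opa1 KO libraries had 488 and 1294 normalised reads, against 372 and 1349.6 in WT libraries. The second library of each genotype was the high one, 2.65-fold above the first in Opa1 KO and 3.63-fold in WT, and the groups overlapped. Only 6.19% of tested genes had a larger SD within groups. The log2 fold change was 0.16 ± 0.85 (SE), with a 95% confidence interval from -2.25 to 2.58, that is 0.21-fold to 5.99-fold. This fit held genotype only, so the split between replicates widened the interval. That interval set almost no bound on a genotype difference in Ucp2, and no interval with a replicate term is given. Between same-numbered libraries, Opa1 KO was higher in replicate 1 (488 against 372) and lower in replicate 2 (1294 against 1349.6). With the replicate block the log2 fold change was again 0.16, with an adjusted p of 0.586 by limma. Leaving out single libraries moved the log2 fold change between -0.76 (without WT replicate 1) and 1.09 (without WT replicate 2).

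Ependymal cells are the multiciliated cells that line the ventricle next to the subventricular zone. The sum of their markers was also higher in replicate 2, 3.69-fold in Opa1 KO and 6.05-fold in WT. This split was wider than that of Ucp2. Summed over 7 ependymal markers, the level was 8249 and 30400 in Opa1 KO libraries, against 5504 and 33293 in WT libraries, and Foxj1, the master regulator of motile cilia, was at 1191 and 4210 in Opa1 KO libraries, against 772 and 5009 in WT libraries. All 7 ependymal markers were above 0 in every library. Endothelial marker sums were higher in replicate 2 as well, 2.67-fold in Opa1 KO and 1.65-fold in WT. So were those of pericytes and smooth muscle, 1.32-fold and 1.39-fold, while neuroblast and oligodendrocyte sums were lower in replicate 2 of both genotypes. Microglia markers ran the other way, with sums over 10 markers of 3356 and 1478 in Opa1 KO libraries, against 3112 and 819 in WT libraries, and Cx3cr1 at 287 and 79.5 against 312 and 36.0. Ucp2 also shares 305 exon bases with a gene on the opposite strand, Dnajb13, which encodes a protein of the ciliary axoneme. Dnajb13 had 382 and 1167 normalised reads in Opa1 KO libraries, against 301 and 1086 in WT libraries. The ratio of Ucp2 to Dnajb13 was 1.28 and 1.11 in Opa1 KO libraries and 1.23 and 1.24 in WT libraries, while Ucp2 per 1000 ependymal marker reads was 59.1 and 42.6 in Opa1 KO libraries and 67.6 and 40.5 in WT libraries. Without the strand of the counting, reads in the shared bases cannot be told apart between both genes, and the part of ependymal RNA in the Ucp2 values was not tested.

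**Figure D4:**
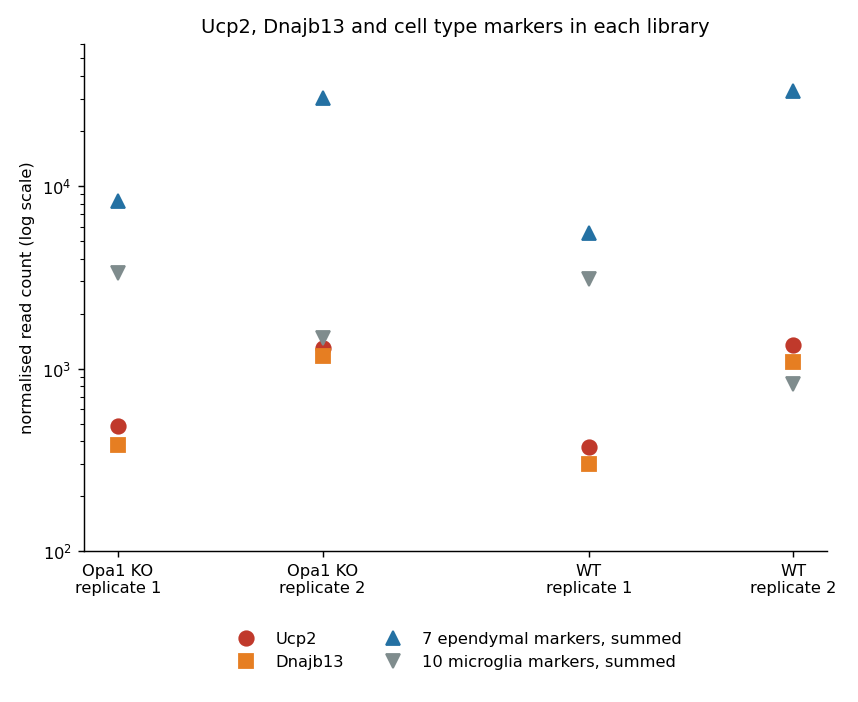
Normalised read count (y axis, log scale) of Ucp2, Dnajb13, the sum of 7 ependymal markers and the sum of 10 microglia markers in the 2 Opa1 KO libraries (left) and the 2 WT libraries (right). Ucp2, Dnajb13 and the ependymal sum are high in replicate 2 of both genotypes, and the microglia sum is low there.

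The wider pathway list held 28 further genes of superoxide, peroxide, thiol and uncoupling chemistry. Of these, 27 were tested and Ucp1, the uncoupler of brown fat, was not, with 0 and 3.83 normalised reads in Opa1 KO libraries, against 0.97 and 1.94 in WT libraries. By limma 0 of 27 passed an adjusted p of 0.05 and 1 passed an unadjusted p of 0.05 (3.70% of the list, against 3.59% of all tested genes), with 13 higher and 14 lower means in Opa1 KO. Non-overlapping groups were found for 1 gene higher (3.70% of the list, against 15.2% of all tested genes) and 6 genes lower in Opa1 KO (22.2%, against 15.7%), and 20 genes overlapped.

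Sod3, the superoxide dismutase secreted to the extracellular matrix, was the gene with the highest fold change in this list and the one called by DESeq2. It had 464 and 537 normalised reads in Opa1 KO libraries, against 257 and 226 in WT libraries, a clear separation. The log2 fold change was 1.05 ± 0.18 (SE; 0.56 to 1.54), with an unadjusted p of 0.0034 and an adjusted p of 0.998 by limma, 0.9999 by edgeR and 0.012 by DESeq2. Only 2.05% of tested genes had a larger difference in either direction. Markers of pericytes and smooth muscle differed in the same direction. All 8 of them had higher means in Opa1 KO and 7 of 8 did not overlap (87.5%, against 15.2% of all tested genes), with sums of 6727 and 8909 in Opa1 KO libraries, against 3325 and 4610 in WT libraries. Pdgfrb, the receptor that defines pericytes, was at 2105 and 2126 in Opa1 KO libraries, against 1058 and 1045 in WT libraries. Per 1000 reads of these markers, Sod3 stood at 68.9 and 60.3 in Opa1 KO libraries and at 77.2 and 48.9 in WT libraries, which overlapped. Higher means were not particular to this list. The 8 oligodendrocyte markers were all higher in Opa1 KO too, and 8 of 8 did not overlap. All endothelial, microglia and ependymal markers had higher means, with 1, 1 and 0 of them not overlapping. Of the neural stem cell and astrocyte markers, 6 were higher and 2 lower. The neuroblast and haemoglobin markers were all lower. The part of RNA from pericytes or any other cell type in the Sod3 difference was not tested.

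The other genes at the ends of the list did not pass any of the 3 tests. Ucp3, the muscle uncoupling protein, had 99.0 and 68.0 normalised reads in Opa1 KO libraries, against 51.3 and 76.8 in WT libraries (log2 fold change 0.38, -0.58 to 1.34). Prdx6, the peroxiredoxin that uses glutathione, was the most abundant of the named genes, with 25839 and 31245 in Opa1 KO libraries, against 23345 and 25969 in WT libraries. These overlapped slightly, with a log2 fold change of 0.21 (-0.23 to 0.65). At the low end, Nnt, the inner membrane transhydrogenase that supplies NADPH to the matrix, had 52.2 and 54.6 in Opa1 KO libraries, against 71.7 and 73.9 in WT libraries, which did not overlap (log2 fold change -0.44, -1.11 to 0.23). The annotation holds 2 overlapping gene entries named Nnt that share 3339 exon bases on 1 strand, the other was at 0 in all libraries, and the Nnt count is uncertain for that reason. Txnrd1, the cytosolic thioredoxin reductase, had 6906 and 5434 in Opa1 KO libraries, against 8744 and 7142 in WT libraries, which did not overlap (log2 fold change -0.37, -0.88 to 0.14). Prdx2, the abundant cytosolic peroxiredoxin of neurons and red cells, had 13272 and 9554 in Opa1 KO libraries, against 16141 and 11745 in WT libraries, with overlap (log2 fold change -0.29, -0.96 to 0.38). Prdx2 shares exon bases with Junb and Rnaseh2a on the opposite strand and has a pseudogene, Tdpx-ps1, at 96.3% identity over 597 bases.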

How the data were processed

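RNA from sorted YFP-positive cells was sequenced in 2 Opa1 KO and 2 WT libraries. Replicates 1 and 2 follow the sample titles. The sample descriptions and the deposited columns number the same libraries 2 and 4 in each genotype. Per the labels, reads were processed with HISAT2, SAMtools, featureCounts and DESeq2 on mm10, while versions and strand setting were not given. Values were deposited as a signal per gene, which the authors made by dividing whole read counts by 1 size factor per library (0.919 and 1.04 in Opa1 KO, 1.03 and 1.03 in WT). Dividing each column by its smallest step gave whole reads for 100% of values within 1e-06. The authors' own test and enrichment columns were not used. Genes with at least 10 in at least 2 libraries were tested on log2(value + 1) by limma 3.58.1 (trend, robust) in R 4.3.3, genotype only, with Benjamini-Hochberg adjustment. Recovered reads were tested by edgeR 4.0.16 (quasi-likelihood) and DESeq2 1.42.0 as alternatives. The fits were also run on simulated counts with no shared replicate effect. That run checks the fitting steps only and does not show how they perform on these libraries. Other alternatives were pseudocounts, filters, scalings, a replicate term and leaving out each library. Intervals of fold changes are at 95% and come from the fit with genotype only, without the replicate term. Nothing in the labels ties a library to its own animals. The p-values therefore rest on the spread between these 4 libraries, which may be technical. The 10 genes were named in full. Of the wider list, the 3 highest and 3 lowest log2 fold changes, Nnt and any gene passing were named, and of each marker list the sum and its first gene. Dnajb13, the promoter motifs and the genes holding them were chosen after values were seen. The 10 genes and the lists were chosen with earlier results of these data known. Gene positions, exon lengths and overlaps (not all reported here) come from GENCODE on GRCm38, promoter sequences from RefSeq on GRCm38.p6.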

Additional observations from a re-analysis of the deposited data

How the results depend on the processing

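In none of the 14 alternatives was a member called. Cat, Gpx1 and Prdx3 kept the sign of their difference in all 14, and the other 7 members turned in at least 1. For Cat and Prdx3, whose groups do not overlap, leaving out 1 library could not turn the sign. Other filters and the replicate block left the members' fold changes as they were. By leaving out single libraries, the log2 fold change ran from -0.18 to 0.13 for Sod1, from -0.18 to 0.15 for Sod2, from -0.0814 to 0.198 for Prdx5, from -0.29 to 0.10 for Txn2, from -0.00095 to 0.099 for Txnrd2, from -0.218 to 0.0246 for Glrx2 and from -0.76 to 1.09 for Ucp2. The median over the members ran from -0.0795 to 0.0625 and that over the wider list from -0.15 to 0.15. With library size only, Sod1 was at 0.0263 and Sod2 at 0.0417, both moved by the shift of 0.0527 that this scaling gave the median of all genes. Sod2 was at 0.0064 with edgeR and TMM, at 0.0022 with edgeR and relative log expression factors and at 0.0038 with DESeq2. The cause of these small Sod2 differences and of the turns without single libraries was not tested. Calls over all genes were 0 higher and 0 lower, and became 1 and 1 with no filter, 48 and 16 with DESeq2, and 123 and 59 with the replicate block. Of the wider list, 1 gene was called by DESeq2 and 1 with the replicate block, Sod3 in both (adjusted p 0.012 and 0.033). Opa1 was called with no filter (adjusted p 0.029), by DESeq2 (1.7e-25) and with the replicate block (0.00047). The replicate numbers share no stated batch or animal. Deviations of same-numbered libraries from their group means correlated at 0.718 over 18547 genes, and replicate 2 differed from replicate 1 in the same direction in both genotypes for 9 of 10 members and for 72.8% of all tested genes. With the replicate block, adjusted p of the members lay between 0.274 and 0.961. Each member had at least 384 reads per library, and each group had 2 libraries.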
